A study of Mus musculus with 2 samples.

Results

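The transcripts described here are the 7 chemokine ligands *Ccl1*, *Ccl3*, *Ccl4*, *Ccl5*, *Ccl9*, *Xcl1* and *Cxcl10*, chosen by name, of 14732 gene symbols listed in at least 1 of 2 libraries of mouse cytotoxic T cells. All 7 were listed in both libraries. CD8+ T cells were isolated from lymph nodes and spleens of 6- to 8-week-old OT-I mice (C57BL/6), whose transgenic T cell receptor recognizes the ovalbumin peptide SIINFEKL. In both conditions the cells were given 2.5 ng/mL of this peptide together with 10 U/mL of IL-2 for 24 h and then transduced with a retroviral vector whose human CD2 sequence marks the cells that carry it. The vector also encoded Eomes, a T-box transcription factor, in the Eomes-overexpressing cells and was empty in the control cells. Cells positive for human CD2 were sorted 48 h later, and 40000 cells per well were stimulated again with peptide and IL-2 at the same doses for 3 days. Eomes was thus driven by a viral vector in cells cultured outside the animal, and the controls had received the same vector, peptide and cytokine. The labels carry a sample number but do not give how many animals or cultures each library came from.

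Chemokines are small secreted proteins that bind G protein-coupled receptors and draw cells along their gradient, and their families are named after the arrangement of cysteines near the amino end. Antigen-stimulated CD8+ T cells are a known source of CCL3, CCL4, CCL5 and XCL1, which attract other T cells, monocytes, natural killer cells and dendritic cells. Much of the control of CCL3 and CCL4 lies in fast transcription after T cell receptor signalling and in the short life of the messenger RNA. CCL5 can be kept in stores and released on renewed contact with antigen.

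Each condition had a single library, so the differences below could not be checked on replicates and carry no p-value. Where 2 values stand side by side, the control comes before the Eomes-overexpressing library. Levels are RPKM, reads scaled to transcript length and to library depth, which allows levels of different genes to be set side by side. Log2 ratios are Eomes-overexpressing over control, a gene that reached an RPKM of 1 in either library was called expressed, and a ratio beyond 1.5-fold (0.58 on the log2 scale) was counted as past the threshold. The RPKM of *Eomes* itself was 2.47 and 129.6. Depth, read from the steps between low values, was about 19700000 and 19400000 reads. Reads approximated from it give 95% intervals of the ratios that cover counting error of these 2 libraries and nothing else. Of 9925 expressed genes, 244 were higher and 515 lower past 1.5-fold, with a median log2 ratio of -0.004.

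Of the 7 ligands, 6 were expressed, 0 were higher and 1, *Ccl9*, was lower past 1.5-fold. Over all expressed genes, 2.46% were higher and 5.19% lower past that threshold. The log2 ratios of the 6 expressed ligands ran from -0.94 to 0.09 with a median of -0.36, and 5 were under 0, whereas 50.5% of all expressed genes were under 0. In bulk RNA, fewer cells making a ligand and less of its RNA per cell cannot be told apart.

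**Figure D1:**
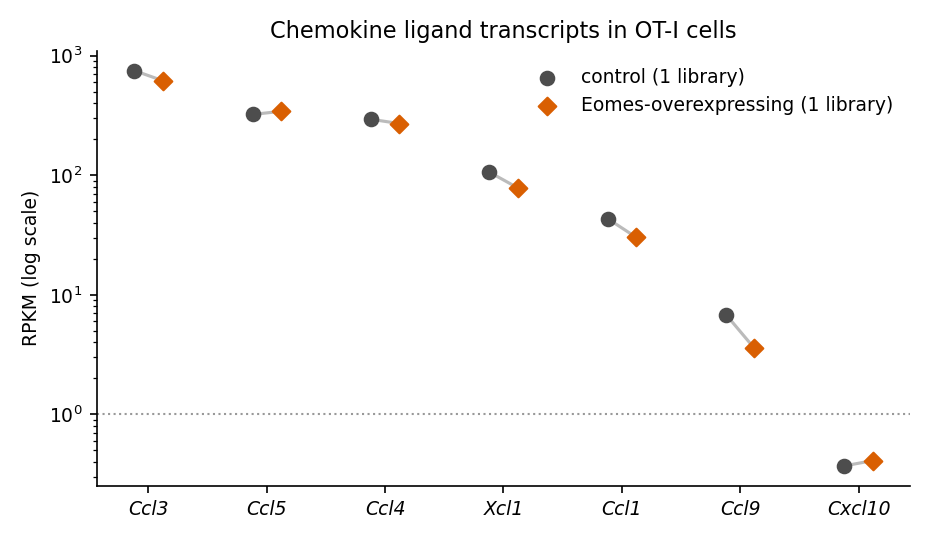
RPKM (log scale) of the 7 chemokine ligands in the control library (circles) and the Eomes-overexpressing library (diamonds), with the dotted line at an RPKM of 1. The order of the 7 levels, from *Ccl3* to *Cxcl10*, was the same in both libraries, and *Cxcl10* lay under the dotted line in both.

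The levels of the ligands spanned more than the difference between the libraries. In control cells *Ccl3* was at an RPKM of 751.9 (counting interval 738 to 766), *Ccl5* at 322.4 (312 to 333), *Ccl4* at 294.1 (285 to 304) and *Xcl1* at 106.3 (100 to 113). *Ccl1* was at 43.3 (39.7 to 47.2), *Ccl9* at 6.82 (6.17 to 7.51) and *Cxcl10* at 0.37 (0.18 to 0.689). The intervals of neighbours in this order did not overlap in either library, but without replicates the spread of the levels between samples is unknown. *Ccl3* was the ligand with the highest level, at rank 112 among genes in control and 128 in Eomes-overexpressing cells. The 7 ligands together reached 1525 and 1345, a log2 ratio of -0.18, which was 0.272% and 0.245% of all RPKM. *Ccl3*, *Ccl4* and *Ccl5* made up 89.7% of that sum in control and 91.6% in Eomes-overexpressing cells. Of 29 other chemokine ligands, 16 were listed in neither library and 0 reached an RPKM of 1, the highest being *Ccl25* at 0.96 in control, so the 7 ligands held 99.8% of the chemokine ligand RPKM in each library.

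*Ccl3*, *Ccl4* and *Ccl5*, the 3 ligands with the highest levels, differed from one another by more than the counting error of these libraries. *Ccl3*, which encodes an attractant of monocytes and T cells, was at 751.9 and 618.9, a log2 ratio of -0.28 (interval -0.32 to -0.24), or 17.7% less. *Ccl4*, whose product is closely related to that of *Ccl3*, was at 294.1 and 270.6, a log2 ratio of -0.12 (interval -0.19 to -0.05). *Ccl5*, whose product attracts T cells, monocytes and eosinophils, was at 322.4 and 342.6, a log2 ratio of 0.09 (interval 0.02 to 0.16). The 3 intervals did not overlap, although the 3 ratios all lay within 1.5-fold. The level of *Ccl3* was 2.33 times that of *Ccl5* with the empty vector and 1.81 times with Eomes, and *Ccl5* went from 21.1% to 25.5% of the ligands' sum. Among the 500 expressed genes nearest in level, 4.6% had a lower log2 ratio than *Ccl3*, 26% a lower one than *Ccl4* and 78.8% a lower one than *Ccl5*. Those shares describe these 2 libraries and are not p-values, and the 3 ratios lay within the central 95% of the genes of like level.

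**Figure D2:**
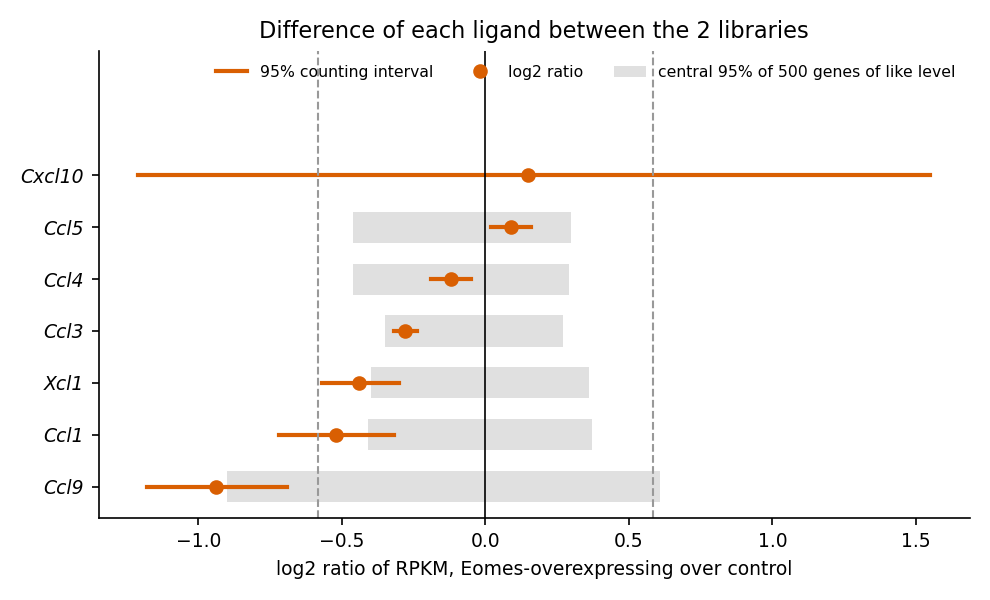
Log2 ratio of RPKM (Eomes-overexpressing over control) of each ligand as a point with its 95% counting interval, over a grey bar that spans the central 95% of the 500 expressed genes of like level; dashed lines mark 1.5-fold. *Ccl9*, *Ccl1* and *Xcl1* lie below their grey bars, *Ccl3* and *Ccl4* within them below 0 and *Ccl5* within its bar above 0, while *Cxcl10*, which was not expressed, has no bar.

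*Xcl1* and *Ccl1* stood lower in Eomes-overexpressing cells than in control cells but within the threshold. *Xcl1*, whose product attracts cross-presenting dendritic cells through XCR1, was at 106.3 and 78.5. Its log2 ratio was -0.44 (interval -0.57 to -0.30), or 1.35-fold lower. *Ccl1*, whose product binds CCR8, was at 43.3 and 30.3, a log2 ratio of -0.52 (interval -0.72 to -0.32), or 1.43-fold lower. The interval of *Xcl1* ended just inside 1.5-fold (0.58 on the log2 scale), while that of *Ccl1* reached past it. Such intervals can be too narrow for short transcripts, so the side of the threshold was not settled at this depth for either gene. Of the 500 expressed genes of like level, 1.2% had a lower ratio than *Xcl1* and 1.8% a lower one than *Ccl1*, and both ratios lay below the central 95% of those genes (-0.40 to 0.36 and -0.41 to 0.37). The level of *Xcl1* was 2.45 times that of *Ccl1* with the empty vector and 2.59 times with Eomes.

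*Ccl9*, which encodes a ligand of CCR1 known mainly from myeloid cells, was at 6.82 and 3.56 RPKM, from about 404 and 208 reads. It was thus 1.92-fold lower, a log2 ratio of -0.94 (interval -1.18 to -0.69), and the whole interval lay past 1.5-fold. Among the 500 expressed genes of like level, 2.4% had a lower ratio, and their central 95% ran from -0.90 to 0.61. Among the nearest 200, 3.5% had a lower ratio than *Ccl9*, which thus lay within the central 95% of that smaller set. Of the 50-base stretches of the *Ccl9* transcript, 2% also occur in another annotated gene, so a small part of its reads could have been shared, whereas 0 did for each of the other 6 ligands. Of 10 myeloid markers, *Lyz2*, *Csf1r*, *Adgre1*, *Mpeg1*, *S100a8* and *S100a9* were listed in neither library, and the list summed to 4.1 and 5.87 RPKM. *Cd68*, a lysosomal protein of macrophages that other cells also make, was at 2.68 and 4.59, *Cd14* at 1.39 and 1.12, and *Itgam* at 0.01 and 0.16. The difference of the sum came mostly from *Cd68*.

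*Cxcl10*, which encodes an interferon-induced ligand of CXCR3, was at 0.37 and 0.41, from about 10 and 11 reads. Its interval ran from -1.21 to 1.55 on the log2 scale and so held differences past 1.5-fold in either direction, which this depth could not tell apart. The other interferon-induced ligands of the same receptor were lower still, with *Cxcl9* at 0.02 and 0.03 and *Cxcl11* at 0.04 and 0.16. These 3 genes stood near the lower end of detection in both libraries.

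Other cell types and the T cells themselves were checked against their markers. All 9 T cell markers were expressed, they summed to 1728 and 1341 RPKM, and their log2 ratios were all under 0 with a median of -0.25. *Cd8a* (181.8 and 99.1) and *Cd2* (265.3 and 170.9) were lower past 1.5-fold, and this list had the direction of the 5 lower ligands. *Cd4* was at 0.03 and 0.08 and *Foxp3* at 0.09 and 0.07, while the CD4 T cell list summed to 14.3 and 11.8, mostly from *Zbtb7b*. The B cell list summed to 3 and 1.71, with *Ms4a1* and *Pax5* listed in neither library and *Cd79b* lower past 1.5-fold (2.79 and 1.56). The dendritic cell list summed to 236.8 and 204.1, of which *Batf3*, a factor that activated T cells also make, held 234 and 202.2, and *Clec9a* was listed in neither. The natural killer cell list summed to 15.8 and 19.3, with *Ncr1* and *Klra8* listed in neither and most of the sum in *Cd160* (15.3 and 13.0, log2 ratio -0.23), a receptor that activated CD8+ T cells also make. *Klrb1c*, a lectin-like receptor, was at 0.31 and 5.74, a log2 ratio of 4.21, and *Fcgr3* at 0.23 and 0.50. The part of the T cell, B cell, myeloid, dendritic cell and natural killer cell lists in the ratios of the ligands was not tested.

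The genomic place of the ligands and their sequence are given because clustered chemokine genes can share control regions. In mm10, *Xcl1* lies on chromosome 1 (chr1:164931644-164935527, minus strand) and *Cxcl10* on chromosome 5 (chr5:92346638-92348889, minus strand). The other 5 lie on chromosome 11, with *Ccl5* (chr11:83525778-83530518), *Ccl9* (chr11:83572919-83578636) and *Ccl3* (chr11:83647844-83649355) on the minus strand and *Ccl4* (chr11:83662584-83664683) on the plus strand. *Ccl5*, *Ccl9*, *Ccl3* and *Ccl4* follow each other in that order, and 132065 bases separate *Ccl5* from *Ccl4*. *Ccl1* (chr11:82176657-82305690, minus strand) lies apart from these 4, and its span includes a long transcript annotated as non-coding, while its coding transcripts start inside the span, next to the upstream window printed for it. The 4 clustered genes had log2 ratios from -0.94 to 0.09, so close neighbours differed: *Ccl9* was past the threshold, and *Ccl5*, 42400 bases away, was above 0.

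Upstream sequence was taken from RefSeq (GRCm38.p6, the assembly of mm10), which gave it for *Ccl1*, *Ccl3*, *Ccl9*, *Xcl1* and *Cxcl10*. The 250 bases before the start were searched on both strands for 5 motifs: the T-box core AGGTGT, the NF-kB form GGGNNNNNCC, the AP-1 form TGANTCA, the interferon response form GAAANNGAAA and the TATA box TATAAA. The 3 windows that held the NF-kB form are shown, since NF-kB is a main driver of chemokine genes, with every motif found in capitals.
Ccl1 (chr11:82179813-82180062, minus strand): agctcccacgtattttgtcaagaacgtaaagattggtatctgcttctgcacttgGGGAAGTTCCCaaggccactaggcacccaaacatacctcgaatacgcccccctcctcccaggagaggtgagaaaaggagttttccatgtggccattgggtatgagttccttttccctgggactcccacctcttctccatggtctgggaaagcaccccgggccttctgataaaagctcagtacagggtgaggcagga
Ccl9 (chr11:83578637-83578886, minus strand): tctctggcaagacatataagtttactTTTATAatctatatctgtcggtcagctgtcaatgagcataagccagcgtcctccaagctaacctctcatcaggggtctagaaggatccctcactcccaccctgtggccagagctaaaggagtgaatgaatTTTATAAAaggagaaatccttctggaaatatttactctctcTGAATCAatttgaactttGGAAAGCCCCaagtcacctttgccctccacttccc
Cxcl10 (chr5:92348890-92349139, minus strand): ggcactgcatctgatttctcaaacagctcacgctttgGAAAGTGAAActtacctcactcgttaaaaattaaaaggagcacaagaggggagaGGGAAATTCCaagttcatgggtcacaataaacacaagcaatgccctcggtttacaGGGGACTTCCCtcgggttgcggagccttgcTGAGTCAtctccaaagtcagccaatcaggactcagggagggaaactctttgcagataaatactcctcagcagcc

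Positions are counted backwards from the start, with -1 the last base shown. *Ccl1* holds 2 NF-kB matches that overlap, beginning at -196 and -195. *Ccl9* holds an NF-kB match at -35, an AP-1 match at -53 and TATA box letters at -224, -94 and -92, the last pair overlapping. *Cxcl10* holds NF-kB matches at -159, -104 and -103, the last pair overlapping, an AP-1 match at -74 and the interferon response form at -213. The NF-kB form is common: 45.8% of all 32851 promoters and 61.7% of those of expressed genes hold it, against 3 of the 5 ligands. AP-1 was in 6.75% of all promoters, 3.99% of those of expressed genes and 2 of the 5 ligands. In the same order, the interferon response form was in 2.98%, 2.65% and 1. TATA box letters were in 12.4%, 5.95% and 1, and the T-box core in 11.8%, 9.36% and 0. *Cxcl10*, whose window holds 3 of the motifs, was not expressed, and 0 of the 5 were found for *Ccl3* and *Xcl1*, which were. A match says only that the letters are there, and the lack of one only that they are not in this window.

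The 3′ untranslated regions were searched for ATTTA, the core of the elements through which proteins such as tristetraprolin shorten the life of cytokine messages. *Ccl3* holds 5 in 409 bases, *Xcl1* 1 in 141, *Ccl4* 2 in 302, *Cxcl10* 3 in 996 and *Ccl9* 5 in 2465, and *Ccl1* and *Ccl5* hold 0. The median over 9764 expressed genes was 1.29 per kb, and 31.2% held 0, against 12.2 per kb in *Ccl3*, 7.09 in *Xcl1*, 6.62 in *Ccl4*, 3.01 in *Cxcl10* and 2.03 in *Ccl9*. The density in *Ccl3* was higher than in 99.5% of expressed genes. The longer form TTATTTATT, in 7.79% of expressed genes, was in 0 of the 7 ligands. The 30 bases that hold the densest part in *Ccl3*, *Ccl9* and *Xcl1* are shown from the GENCODE transcripts, with ATTTA in capitals.
Ccl3: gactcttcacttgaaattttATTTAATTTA
Ccl9: tgagtccATTTAtacagtggatctcATTTA
Xcl1: atttcaaatgttataagtaataaatATTTA

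Of the expressed ligands with ATTTA, *Ccl3*, *Xcl1*, *Ccl4* and *Ccl9* had log2 ratios under 0, and of those without, *Ccl1* was at -0.52 and *Ccl5* at 0.09. *Cxcl10*, with ATTTA but not expressed, was at 0.15. The part of this element in the ratios was not tested. Of 12 genes of negative feedback and mRNA decay, all expressed, 1 was higher and 1 lower past 1.5-fold, with a median of -0.01. The shares over all expressed genes were 2.46% higher and 5.19% lower. *Zfp36l2*, an RNA-binding protein that recognizes such elements, was at 44.6 and 67.2, a log2 ratio of 0.59 (interval 0.53 to 0.66) at the edge of the threshold. *Zfp36*, which encodes tristetraprolin itself, was at 14.5 and 13.9, and *Zc3h12d*, a member of a family of RNA-cleaving proteins, was at 18.0 and 9.85, a log2 ratio of -0.87.

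Receptor genes of the ligands were also read, and 4 of the 6 reported here were expressed. These 4 were lower past 1.5-fold, beside 5.19% of all expressed genes, and the 6 are not a full list of the receptors. Of the 4, *Ccr1* reached an RPKM of 1 only in control, where it was higher. *Cxcr3*, the receptor of CXCL10, was at 21.2 and 8.83, a log2 ratio of -1.27 (interval -1.46 to -1.07). *Ccr8*, the receptor of CCL1, was at 3.07 and 1.42, a log2 ratio of -1.11 (interval -1.78 to -0.51). Set beside its ligand, *Ccr8* was 2.16-fold lower and *Ccl1* 1.43-fold lower. *Ccr1*, a receptor of CCL3, CCL5 and CCL9, was at 1.03 and 0.32 (-1.69, interval -2.52 to -0.88), and *Xcr1*, the receptor of XCL1, at 1.79 and 1.11 (-0.69, interval -1.07 to -0.31). *Ccr3* was under the minimum at 0.18 and 0.06, and the decoy receptor gene *Ackr2* was listed in neither library. Against the 500 expressed genes of like level, *Cxcr3* lay below their central 95% (-0.63 to 0.44), whereas *Ccr1* (-1.79 to 1.38), *Ccr8* (-1.22 to 0.89) and *Xcr1* (-1.37 to 0.89) lay within it.

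**Figure D3:**
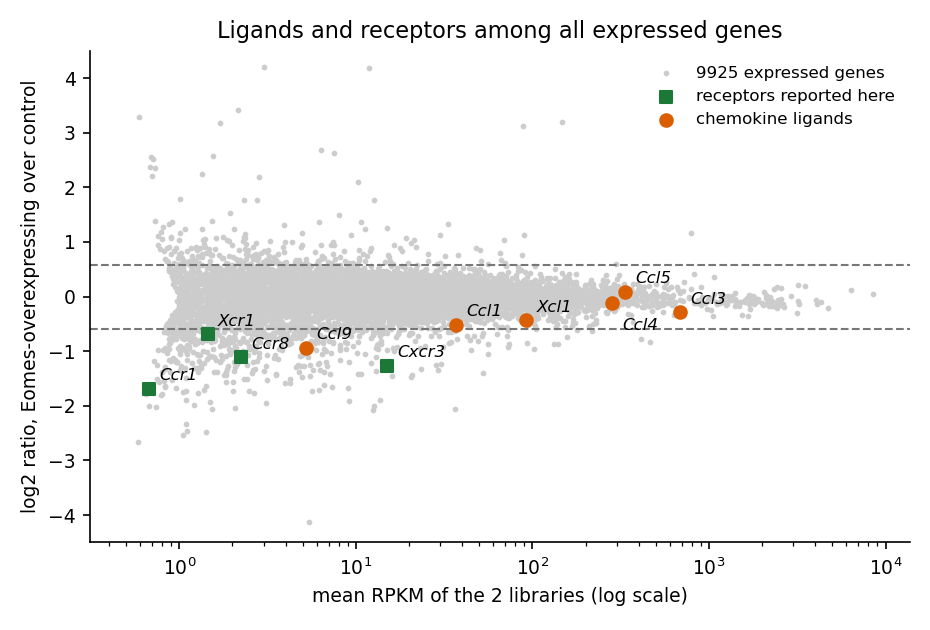
Log2 ratio (Eomes-overexpressing over control) of every expressed gene against its mean RPKM (log scale), with the 6 expressed ligands as circles, 4 expressed receptors as squares and dashed lines at 1.5-fold; 7 expressed genes lie outside the axis limits of 4.5 in either direction. The 4 receptors shown and, of the ligands, *Ccl9* lie below the lower dashed line.

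Factors known to induce chemokine genes stayed mostly within the threshold. Of 20 such factors, all expressed, 0 were higher and 3 lower past 1.5-fold, with a median of -0.16 and 14 under 0. Over all expressed genes, 2.46% were higher and 5.19% lower past that threshold, and 50.5% were under 0. *Tbx21*, which encodes the T-box factor T-bet, was at 41.0 and 21.6 (log2 ratio -0.92). *Irf1*, an interferon-regulated factor, was at 21.6 and 14.1 (-0.62), and *Stat4*, which carries interleukin-12 signals, at 22.5 and 14.8 (-0.60). The NF-kB subunit genes *Nfkb1* (148.3 and 146.9), *Rela* (52.6 and 48.1), *Rel* (5.08 and 5.3) and *Relb* (23.6 and 20.5) lay within 1.5-fold. *Nfkb2* (102.7 and 76.1, log2 ratio -0.43, interval -0.48 to -0.38) was also within it. Of the 500 expressed genes of like level, 2% had a lower ratio than *Nfkb2*.

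Cytokines made alongside chemokines after antigen contact differed among themselves. Of 12 such genes 10 were expressed, and 1 was higher and 3 were lower past 1.5-fold, with a median of -0.13. The shares over all expressed genes were 2.46% higher and 5.19% lower. *Spp1*, which encodes the chemotactic protein osteopontin, was at 45.3 and 92.9 (log2 ratio 1.04). *Il13* was at 10.3 and 0.59 (-4.13), *Csf2*, the gene of the growth factor GM-CSF, at 21.6 and 5.80 (-1.90), and *Ltb* at 197.2 and 117.6 (-0.75). *Ifng* was at 1343 and 1357, above *Ccl3* in both libraries, and *Il2* was listed in neither. Of 17 interferon-induced genes 12 were expressed, 0 higher and 3 lower past 1.5-fold with a median of -0.27, beside the same shares over all expressed genes. The 3 were *Gbp2*, a guanylate-binding protein (8.97 and 3.52, -1.35), *Isg15*, a ubiquitin-like protein (2.22 and 0.99, -1.17), and *Irf1*. *Il13* and *Isg15* reached an RPKM of 1 only in control.

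**Figure D4:**
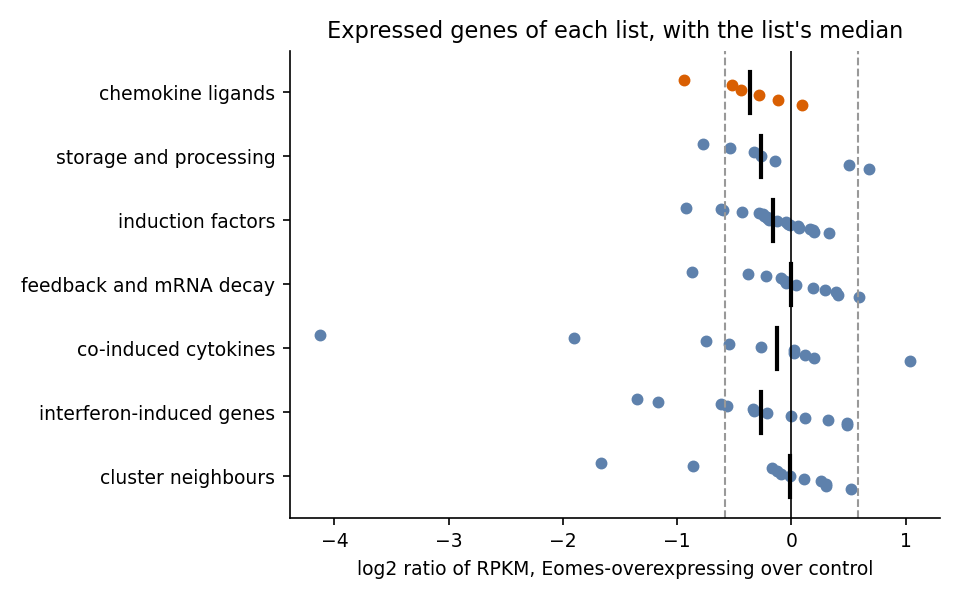
Log2 ratio of RPKM (Eomes-overexpressing over control) of each expressed gene, by gene list, with a thick black bar at each list's median and dashed lines at 1.5-fold. The median of the 6 expressed ligands was -0.36, while the other 6 lists shown had medians between -0.27 and -0.01. The receptors, with a median of -1.19 over 4 expressed genes, and the cell type markers are not drawn.

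The expressed gene with the pattern most like each of the 6 expressed ligands was the one nearest in the log2 RPKM of the 2 libraries, 2 values per gene. It was *Tpi1*, a glycolytic enzyme, for *Ccl3* (728.7 and 620.4), *Cct2*, a chaperonin subunit, for *Ccl5* (323.3 and 336.5) and *Prmt1*, an arginine methyltransferase, for *Ccl4* (294.5 and 275.1). It was *Il21r*, the interleukin-21 receptor, for *Xcl1* (103.8 and 78.1), *Marcksl1* for *Ccl1* (42.5 and 30.2) and *Lilr4b* for *Ccl9* (6.78 and 3.44). These 6 lay within 0.05 on the log2 scale.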

How the data were processed

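The authors sequenced total RNA of 1 control and 1 Eomes-overexpressing sample on an Illumina HiSeq instrument. Per the labels, the processing notes name HISAT2, Bowtie2, RSEM and mm10, while the series' design text names HISAT. The authors deposited FPKM values with 2 decimals, which their methods call RPKM, and named no scaling between libraries.

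Tools were scipy 1.17.1, pandas 2.3.3 and numpy 2.4.6 under Python 3.11.15, with matplotlib 3.10.9 for plots. A value below 0.01 or missing was replaced by 0.01. Date-like symbols (20 rows of the control and 19 of the Eomes file) were dropped. A gene was called at more than 1.5-fold if it reached an RPKM of 1 in either library. Depth was read from 133 and 143 low genes with 1 annotated transcript of at most 2000 bases. With the best step, 54.1% and 53.8% of their values lay within 0.15 of a whole read, against 30% for values spread evenly, so depth and reads are approximate. Reads came from depth and the full GENCODE vM21 transcript length, with no correction for fragment length. For short transcripts, which most of the ligands have, reads could thus be overstated and the intervals too narrow. Intervals of ratios are exact binomial (Clopper-Pearson) and those of levels exact Poisson, both at 95%, and cover counting error only. Genes of like level were the 500 expressed genes nearest in mean log2 RPKM. Steps were tested on simulated data. Its reads were drawn with the same full transcript lengths, so that test could not cover the effect of fragment length on depth and intervals.

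Named were the ligands, *Eomes*, the receptors, list genes past 1.5-fold (up to 6 in a list) and the gene nearest to each ligand, except that some genes under this rule are not reported here and are left out of the list counts; other named genes give context and were chosen after their values were seen. The ligands and lists were chosen with earlier results of these data known. Alternatives were other scalings, pseudocounts of 0.1 and 1, no minimum RPKM or 5, a 2-fold threshold, 20 bins of GC content, sums as a share of the library or without *Ccl3*, and 200 genes of like level.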

Additional observations from a re-analysis of the deposited data

How the results depend on the processing

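No paired analysis was possible because each condition has 1 library and both carry replicate number 1, and no library could be left out. No ratio of a ligand changed sign under 6 alternatives (3 scalings, 2 pseudocounts and centring by GC content), but only centring by GC content could have changed one. A pseudocount cannot reverse a ratio, and the 3 scalings shifted log2 ratios by only -0.032, -0.000 and -0.004. *Ccl9* ranged from -1.14 to -0.78, *Ccl1* from -0.52 to -0.47, *Xcl1* from -0.53 to -0.40, *Ccl3* from -0.37 to -0.25, *Ccl4* from -0.14 to -0.09, *Ccl5* from 0.09 to 0.18 and *Cxcl10* from 0.04 to 0.18. With a 2-fold threshold, 0 ligands were lower in place of 1. Of the 74 expressed genes reported of the lists other than the ligands and the cell type markers, 3 (4.05%) were higher and 16 (21.6%) lower past 1.5-fold. The shares over all expressed genes were 2.46% and 5.19%. Higher list genes were 1 with a pseudocount of 1 and 1 with a 2-fold threshold. Lower list genes were 31 with no minimum RPKM, 10 with a minimum of 5 and 8 with a 2-fold threshold. The summed ligands had a log2 ratio of -0.15 as a share of all RPKM and -0.09 without *Ccl3*, against -0.18. *Ccl5* lay above 74.5% of 200 genes of like level, against 78.8% of 500. *Ccl9* lay above 3.5% of 200, against 2.4% of 500, and so was below the central range of its like genes only with 500. The causes of these shifts, beyond the number of genes tested or summed, were not tested. The differences between conditions rest on 1 library each, and the depth limits *Cxcl10*.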

Other observations

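Genes whose products hold or trim secreted chemokines were also measured. Of 8 such genes 7 were expressed, 1 higher and 1 lower past 1.5-fold, with a median log2 ratio of -0.27. Among all expressed genes, 2.46% were higher and 5.19% lower past that threshold. *Chst11*, a chondroitin sulfotransferase, was at 4.85 RPKM in control cells and 7.77 with Eomes (log2 ratio 0.68, counting interval 0.52 to 0.84). *Sdc4*, a heparan sulfate proteoglycan of the cell surface, was at 1.19 and 0.70 (-0.77, interval -1.45 to -0.15) and so reached an RPKM of 1 only in control. *Srgn*, which encodes serglycin, the proteoglycan core of secretory granules, was at 198.7 and 136.7 (-0.54), and *Dpp4*, a peptidase that trims chemokines, at 5.14 and 4.08 (-0.33), both within 1.5-fold.

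Of 20 genes that flank the chemokine genes on chromosome 11, 11 were expressed, 0 higher and 2 lower past 1.5-fold, with a median of -0.01. Past that threshold, 2.46% of all expressed genes were higher and 5.19% lower. The 2 were Schlafen genes, *Slfn1* (1.46 and 0.46, log2 ratio -1.67, interval -2.52 to -0.84) and *Slfn2* (43.2 and 23.9, -0.86), and *Taf15*, a general RNA-binding factor, was at 39.5 and 47.4 (0.26). *Slfn1* reached an RPKM of 1 only in control.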
